A study of Mus musculus with 9 samples.

Results

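Pvt1 is a long noncoding RNA (lncRNA) gene on mouse chromosome 15, and Myc is the protein-coding gene that lies directly upstream of it on the same strand. The 2 genes were found by gene name in GENCODE release 21 for mouse (GRCm38). Pvt1 had 10 transcripts among the 15657 listed in the lncRNA table (9933 genes), and Myc had 8 among the 102122 of the mRNA table (21809 genes). The pair was picked with measured levels in these same libraries already known, so its levels and the differences between groups are given as a description, with a standard error and without a test.

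The trigeminal ganglion (TG) holds the cell bodies of the sensory neurons of the face and jaw, with their satellite glia and Schwann cells. Total RNA of the TG was sequenced in 9 libraries, 3 for each of 3 groups, from male wild-type C57BL/6 mice aged 8 weeks. A volume of 10 µl was injected into the temporomandibular joint (TMJ) on 1 side, either saline (saline, labelled day 3, replicates 1 to 3) or complete Freund's adjuvant (CFA), a suspension that inflames the joint, at 5 mg/ml, with tissue taken on day 3 (group CFA3D, replicates 1 to 3) or day 6 (group CFA6D, with replicates numbered 4 to 6). Punches of 1 TG from each of 3 mice were combined into a library, and n = 3 such pools in all groups. No saline library is labelled day 6, so for CFA6D the time since injection and CFA cannot be told apart. Values are FPKM (fragments counted on a transcript, divided by its length in kilobases and by the depth of the library), added up over the transcripts of a gene (gene sum). Differences were taken between values of log2(FPKM + 0.1), and the added 0.1 makes changes at low levels look smaller.

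In mammals the Pvt1 locus is known as a neighbour of Myc that is often amplified or rearranged together with it in tumours. Its promoter shares enhancers with the Myc promoter, and Pvt1 is one of the noncoding genes that the stress-responsive factor p53 switches on. Myc encodes a transcription factor that pairs with Max on E-box sequences and raises genes of ribosome production, metabolism and growth, and both its mRNA and its protein turn over fast.

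By the annotation, Myc occupies chr15:61985391-61990374 and Pvt1 chr15:62037986-62378096, both on the plus strand. The end of Myc and the start of Pvt1 are 47.6 kb apart, and Pvt1 spans 340.1 kb against 5.0 kb for Myc. The 10 Pvt1 transcripts are built from 34 distinct exons, of which 28 occur in 1 transcript and 13 overlap no exon of another transcript. Reads in the remaining exons had to be divided among transcripts when the FPKM values were made. The 5 exons printed here were chosen because they tell apart the transcripts described further on. The sequences come from the GENCODE transcripts (GRCm38, plus strand, 5′ to 3′).
The first is the exon that 8 transcripts share at chr15:62242174-62242301, and the capitals mark the 4 bases at its end that Pvt1-204 leaves out.
Shared exon: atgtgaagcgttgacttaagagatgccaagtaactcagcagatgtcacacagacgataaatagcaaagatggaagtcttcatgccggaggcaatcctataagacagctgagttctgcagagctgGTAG
The second is found in Pvt1-208 alone, at chr15:62175828-62175926, and it sets that transcript apart from Pvt1-201 and Pvt1-210.
Exon of Pvt1-208: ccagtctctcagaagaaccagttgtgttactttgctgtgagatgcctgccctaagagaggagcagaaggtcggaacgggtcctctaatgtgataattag
The third is the last exon of Pvt1-204, at chr15:62258421-62258637, downstream of the last exon that most other transcripts use.
Last exon of Pvt1-204: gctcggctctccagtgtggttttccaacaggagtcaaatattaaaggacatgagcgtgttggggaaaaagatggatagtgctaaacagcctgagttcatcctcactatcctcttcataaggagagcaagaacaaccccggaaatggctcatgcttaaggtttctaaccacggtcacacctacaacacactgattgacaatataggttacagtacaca
The fourth belongs to Pvt1-202, at chr15:62313370-62313479, and lies in the distal stretch of the gene that no other transcript enters.
Exon of Pvt1-202: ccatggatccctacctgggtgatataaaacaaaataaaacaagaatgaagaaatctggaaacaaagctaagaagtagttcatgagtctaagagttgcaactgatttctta
The fifth is the first exon of Pvt1-210, at chr15:62039257-62039447, which starts 1271 bases after the start of the gene.
First exon of Pvt1-210: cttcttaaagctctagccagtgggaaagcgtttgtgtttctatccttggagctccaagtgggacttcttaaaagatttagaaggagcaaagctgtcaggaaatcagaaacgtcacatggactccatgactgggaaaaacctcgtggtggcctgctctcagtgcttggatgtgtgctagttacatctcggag

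**Figure D1:**
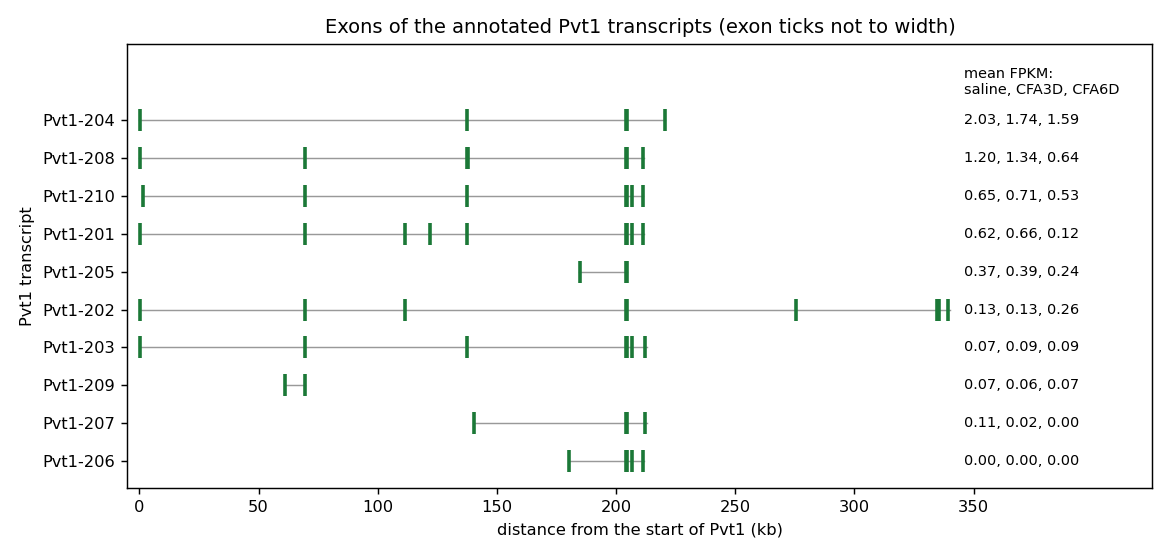
Exons of the 10 annotated Pvt1 transcripts (green ticks, not drawn to their width) by distance from the start of the gene in kb, with the mean FPKM of saline, CFA3D and CFA6D at the right (n = 3 libraries each). Pvt1-204 ends downstream of all others but Pvt1-202, which alone runs to the far end of the gene, and Pvt1-208 and Pvt1-201 have means of 0.64 and 0.12 FPKM on CFA6D against 1.20 and 0.62 FPKM in saline.

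The depth by which the FPKM values were scaled was read from their smallest steps and came to between 30.0 M and 42.1 M read pairs per library. It is not the number of all reads sequenced, and the study reports higher read totals for each group. At these depths 1 read pair in 1 kb was worth 0.0237 to 0.0334 FPKM. The tissue label fitted the neuronal markers, whose summed level of 8 genes lay between 1946 and 2903 FPKM in all libraries. Other markers set single libraries apart, and some set groups apart. The 4 pituitary genes (Gh, Prl, Pomc and Cga) summed to 10610 FPKM in saline replicate 3 and to between 8.67 and 1113 FPKM in the other libraries, with all CFA6D libraries (42.6 to 1113 FPKM) above all CFA3D libraries (13.8 to 20.3 FPKM). The 8 neutrophil and marrow genes summed to 132.6, 120.1 and 2637 FPKM in CFA6D replicates 4 to 6, against 47.0 to 118.3 FPKM in saline and 23.9 to 71.3 FPKM on CFA3D. All CFA6D libraries thus lay above the others, by little from saline except in replicate 6. The sum of the 10 genes of dividing cells was 53.9 FPKM in that library against 23.8 to 31.4 FPKM in the others. The 5 skeletal muscle genes ranged from 1.11 to 135.8 FPKM, with the highest value in saline replicate 2. In the lncRNA table, from which Pvt1 was read, the FPKM of CFA6D replicate 4 summed to 70257 against 8151 to 8911 in the other libraries. A single transcript listed at 62080 FPKM made up the excess, and without it the sums were 8075 to 8806 in all 9 libraries. The results for the gene sums of Pvt1 and Myc and for the gene lists are therefore given with and without saline replicate 3 and CFA6D replicate 6. The single transcripts of both genes and the neighbouring genes are given with all libraries only. Leaving these libraries out did not make the other tissues even between the groups, as the markers further on show.

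Pvt1 stood at about the same level in saline and on CFA3D and lower on CFA6D. In saline its gene sum was 5.57, 5.37 and 4.77 FPKM in replicates 1 to 3 (mean 5.24 ± 0.42, SD). On CFA3D it was 4.86, 5.28 and 5.24 FPKM (5.13 ± 0.23). On CFA6D it was 3.42, 3.22 and 4.04 FPKM in replicates 4 to 6 (3.56 ± 0.43). Saline and CFA3D overlapped, whereas all CFA6D libraries lay below all libraries of the other groups. About 145 to 242 read pairs stood behind each of these sums. In bulk tissue, fewer cells that contain Pvt1 and less Pvt1 RNA per cell cannot be told apart.

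The ratio of the group means was 0.979 for CFA3D to saline, 0.679 for CFA6D to saline and 0.694 for CFA6D to CFA3D. On the log2 scale the differences were -0.03 (SE 0.14), -0.55 (SE 0.14) and -0.52 (SE 0.14). Among the 4122 lncRNA genes whose sums averaged 0.1 FPKM or more, 6.74% had all CFA6D libraries below all saline libraries and 6.57% had them below all CFA3D libraries. Since the gene was chosen on such values, nothing is read from its place among them. The difference between CFA6D and saline was -0.61 without saline replicate 3, the pituitary-rich library, and -0.64 without CFA6D replicate 6, the marrow-rich library. Without both it was -0.71 (SE 0.15). Without CFA6D replicate 4, the library with the high lncRNA sum, it was -0.52, and the difference from CFA3D was -0.49. In saline, Pvt1 ranked 110 of the 9933 lncRNA genes by mean FPKM, while Myc ranked 11506 of the 21809 genes of the mRNA table.

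**Figure D2:**
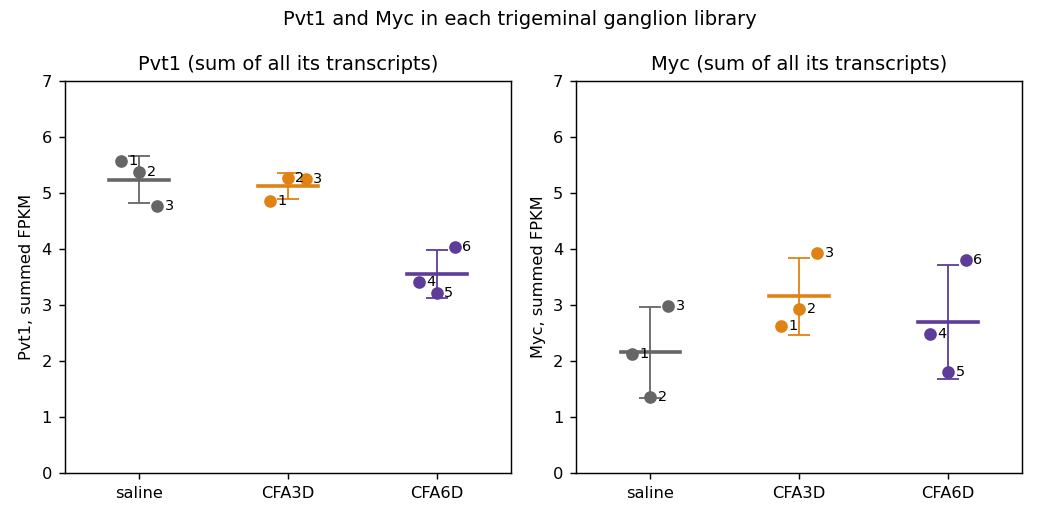
Summed FPKM of Pvt1 (left) and Myc (right) in each library (points, labelled with the replicate number), with the mean and SD of each group (n = 3). For Pvt1 the CFA6D points (3.22 to 4.04 FPKM) lie below all saline and CFA3D points, and for Myc the points of the 3 groups overlap.

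Myc overlapped between all groups, although saline overlapped CFA3D through saline replicate 3 alone. Its gene sum was 2.13, 1.35 and 2.98 FPKM in saline (2.15 ± 0.82, SD), 2.62, 2.92 and 3.93 FPKM on CFA3D (3.16 ± 0.69) and 2.47, 1.80 and 3.81 FPKM on CFA6D (2.69 ± 1.02). The spread within a group was wide, and the highest saline value was that of the pituitary-rich library and the highest CFA6D value that of the marrow-rich library. Whether the other tissues in these libraries had a part in the Myc level was not tested.

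The log2 difference of Myc was 0.58 (SE 0.33) between CFA3D and saline, 0.31 (SE 0.33) between CFA6D and saline, and -0.27 (SE 0.33) between CFA6D and CFA3D. Single libraries moved these values by more than they moved Pvt1. For CFA3D it became 0.29 when saline replicate 2 was left out and 0.84 when saline replicate 3 was. For CFA6D, leaving out saline replicate 2 or CFA6D replicate 6 gave 0.03 or 0.04, and leaving out CFA6D replicate 5 or saline replicate 3 gave 0.56 or 0.57. Between CFA6D and CFA3D it was -0.10 without CFA3D replicate 3, -0.02 without CFA6D replicate 5 and -0.54 without CFA6D replicate 6. Without both saline replicate 3 and CFA6D replicate 6, Myc differed by 0.84 (SE 0.26) between CFA3D and saline. In that setting it differed by 0.30 (SE 0.29) between CFA6D and saline and by -0.54 (SE 0.26) between CFA6D and CFA3D. The ratio of Pvt1 to Myc FPKM was 2.62, 3.97 and 1.60 in saline, 1.86, 1.81 and 1.33 on CFA3D, and 1.38, 1.79 and 1.06 on CFA6D, with overlap between all groups.

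The lower Pvt1 sum on CFA6D was not spread evenly over the transcripts. Pvt1-204, which has 5 exons and its own last exon, was the most abundant and made up 38.7% of the summed FPKM in saline, 34.0% on CFA3D and 44.6% on CFA6D. Its FPKM was 1.80, 2.38 and 1.90 in saline, 1.69, 1.64 and 1.91 on CFA3D and 1.69, 1.35 and 1.72 on CFA6D. The CFA6D libraries lay below the saline libraries but overlapped CFA3D, with log2 differences of -0.33 (SE 0.17) and -0.13 (SE 0.17).

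Pvt1-208 and Pvt1-201, 2 transcripts that end at the common last exon, differed most in FPKM. Pvt1-208 was at 1.11, 1.15 and 1.34 FPKM in saline, 1.27, 1.50 and 1.25 on CFA3D, and 0.31, 0.58 and 1.03 on CFA6D. All its CFA6D values lay below those of both other groups, by a log2 difference of -0.93 (SE 0.32) from saline and -1.08 (SE 0.32) from CFA3D. Pvt1-201 was at 1.27, 0.25 and 0.33 FPKM in saline, 0.51, 0.86 and 0.60 on CFA3D, and 0.20, 0.15 and 0.02 on CFA6D.

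The CFA6D libraries of Pvt1-201 were again the lowest, at -1.51 (SE 0.53) from saline and -1.83 (SE 0.53) from CFA3D, but saline replicate 1 alone carried most of its saline mean. Together these 2 transcripts accounted for 1.06 of the 1.68 FPKM between the saline and CFA6D means of the gene (62.9%), and for 78.7% of the 1.57 FPKM between CFA3D and CFA6D. They were singled out after their values had been seen. Their share of the gene sum was 26.1% to 42.8% in saline, 35.2% to 44.8% on CFA3D and 14.9% to 26.0% on CFA6D. The other 8 transcripts summed to 3.10 to 3.97 FPKM in saline, 2.91 to 3.39 FPKM on CFA3D and 2.49 to 2.99 FPKM on CFA6D, so that their CFA6D libraries lay below saline and overlapped CFA3D.

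Pvt1-202, the transcript of 10 exons that reaches the distal end of the gene, went the other way between the CFA groups. It was at 0.21, 0.10 and 0.08 FPKM in saline, 0.11, 0.13 and 0.15 on CFA3D, and 0.35, 0.27 and 0.18 on CFA6D. The CFA6D libraries lay above all CFA3D libraries (log2 difference 0.64, SE 0.31) and overlapped saline (0.69, SE 0.31). Its share of the gene sum was 2.46% in saline, 2.54% on CFA3D and 7.44% on CFA6D, on 10 to 45 read pairs per library.

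Pvt1-210, which begins at the alternative first exon printed above, ranged from 0.30 to 0.78 FPKM and lay below CFA3D on CFA6D but overlapped saline. Pvt1-205, which starts inside the gene, ranged from 0.06 to 0.52 FPKM and overlapped between all groups. Pvt1-203, Pvt1-209 and Pvt1-207 had means under 0.1 FPKM, and Pvt1-206 was listed at 0 in all 9 libraries. Grouped by first exon, the 5 transcripts that use the main first exon held 77.3% of the sum in saline, 77.2% on CFA3D and 76.2% on CFA6D. Grouped by last exon, the 6 that end at the common last exon held 50.5%, 54.7% and 39.1%.

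Of the 6 transcripts that averaged 0.1 FPKM or more, 3 (Pvt1-204, Pvt1-208 and Pvt1-201) were lower in all CFA6D libraries than in all saline libraries, which held for 6.06% of the 5672 lncRNA transcripts tested. Against CFA3D, 3 were lower without overlap (Pvt1-208, Pvt1-210 and Pvt1-201, background 6.73%) and 1 was higher (Pvt1-202, background 5.32%). The transcripts share exons and the gene was chosen on its level, so these counts are a description.

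**Figure D3:**
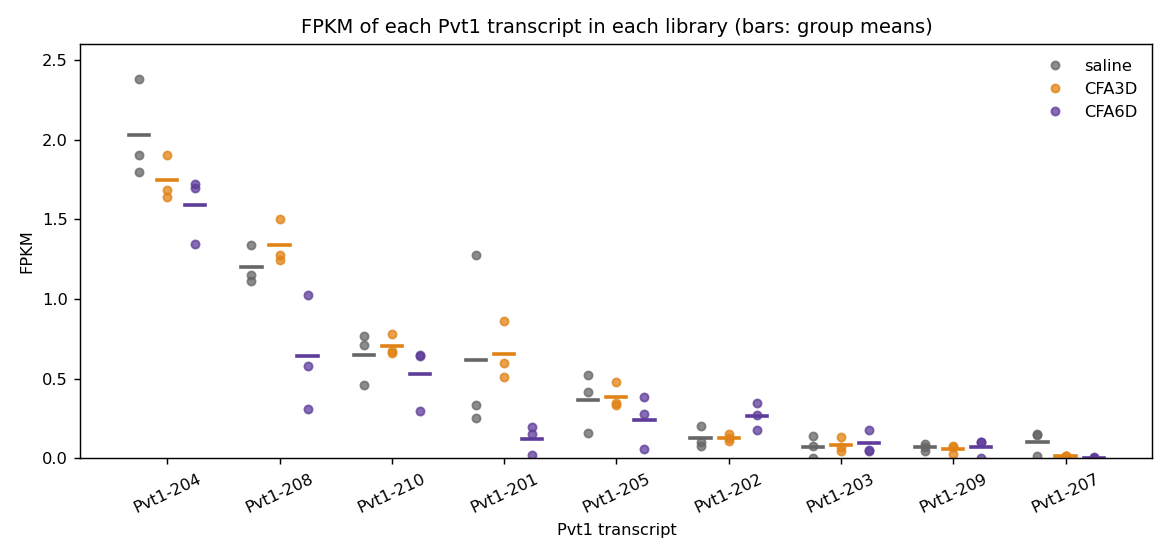
FPKM of the 9 Pvt1 transcripts with a value above 0, in each library (points) with the group means (bars, n = 3), for saline, CFA3D and CFA6D. The CFA6D points of Pvt1-208 and Pvt1-201 lie under those of both other groups, while those of Pvt1-202 lie above CFA3D.

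Among the Myc transcripts, Myc-204 and Myc-202 had groups without overlap, and others split between libraries in a way that did not follow the groups. Myc-204, the most abundant, was at 0.75, 0.35 and 0.95 FPKM in saline, 1.27, 1.02 and 2.31 on CFA3D, and 0.58, 0.38 and 0.91 on CFA6D. The CFA3D libraries lay above both other groups for this transcript, at 1.06 (SE 0.43) from saline, and CFA6D lay at -1.16 (SE 0.43) from CFA3D. Myc-202 was at 0.31, 0.29 and 0 FPKM in saline, 0.23, 0.46 and 0.01 on CFA3D, and 0.56, 0.38 and 0.48 on CFA6D, so that CFA6D lay above saline (log2 difference 1.16, SE 0.70) and overlapped CFA3D. In saline replicate 3 and CFA3D replicate 3, Myc-206 and Myc-208 were listed at 0 and Myc-202 was at its lowest, whereas Myc-201 was at 1.19 and 0.64 FPKM there against 0.04 to 0.17 FPKM in the other 7 libraries. These transcripts overlap over most of their length. Their values therefore depend on how reads were divided, and the gene sum is the firmer measure.

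Around the pair, 56 annotated genes start within 2 Mb of the start of Myc. A value of 0 in every library was listed for 27 of these, and 11 averaged 0.1 FPKM or more, Myc and Pvt1 among them. Fam49b, which encodes a regulator of the actin cytoskeleton, was the highest, at 11.5, 11.0 and 11.3 FPKM in saline, 9.81, 12.2 and 11.1 on CFA3D and 9.60, 9.88 and 14.4 on CFA6D. Its log2 differences from saline were -0.04 (SE 0.15) and -0.02 (SE 0.15).

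Fam84b, at 0.154 to 1.17 FPKM, and the lncRNA genes Gm2682 (0.125 to 0.656 FPKM) and Gm38563 (0.019 to 0.386 FPKM) did not pass the test in a comparison. The lncRNA gene 9930014A18Rik, which lies opposite Fam84b, fell on CFA6D. Its gene sum was 0.43, 0.65 and 0.71 FPKM in saline, 0.50, 0.28 and 0.38 on CFA3D and 0.35, 0.34 and 0.36 on CFA6D, a log2 difference of -0.61 (SE 0.25, limma adjusted p = 0.629). An unadjusted p under 0.05 was reached in this direction by 4.03% of the lncRNA gene sums. Gm27782, a small noncoding RNA inside Pvt1, ranged from 0.009 to 0.413 FPKM, and the pseudogenes H2afy3, Tsg101-ps and Gsdmcl-ps from 0.078 to 0.847 FPKM.

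To set Myc among the genes it works with, the gene sums of 4 lists were compared in limma over the 16096 gene sums of the mRNA table that averaged 0.1 FPKM or more. A gene was called at an unadjusted p under 0.05, the cutoff given in the study's methods. None of the mRNA gene sums reached a Benjamini-Hochberg adjusted p under 0.05 in any of the 3 comparisons, whereas 717, 1781 and 1190 reached an unadjusted p under 0.05 for CFA3D against saline, CFA6D against saline and CFA6D against CFA3D. Of all gene sums, 3.65% were higher and 0.801% lower by this rule on CFA3D. On CFA6D these shares were 8.22% and 2.85%, and between CFA6D and CFA3D 3.06% and 4.34%. The split between higher and lower calls depended on scaling. After quantile normalization it was 990 higher and 985 lower on CFA6D, in place of 1323 and 458, and 291 higher and 208 lower on CFA3D, in place of 588 and 129. Scaled to the summed mRNA FPKM of each library it was 1217 and 694 on CFA6D and 397 and 205 on CFA3D. With saline replicate 3 and CFA6D replicate 6 both left out, 424 of the 16096 were called higher and 285 lower on CFA3D. On CFA6D it was 884 and 654, and between CFA6D and CFA3D 423 and 712. These are the background for all list counts without those libraries.

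Of the 61 genes of the Myc lists other than Myc, 2 were called on CFA3D, both higher, with a median log2 difference of 0.08 against 0.05 for all gene sums. On CFA6D 9 were called, 8 higher and 1 lower, with a median of 0.07 against 0.03, and between CFA6D and CFA3D 6 were called, 2 higher and 4 lower, with a median of 0.02 against -0.02. None of them also had a log2 difference of at least 1 in size. The CFA3D count rested on single libraries. It was 4 without saline replicate 1, 0 without CFA3D replicate 2 or CFA3D replicate 3, 1 without any 1 of the CFA6D libraries, and 0 after quantile normalization. On CFA6D the count was 6 without saline replicate 3, and after quantile normalization it was 7 higher and 3 lower. Without saline replicate 3 and CFA6D replicate 6 together, 2 were called on CFA3D, both higher. On CFA6D it was 6, 5 higher and 1 lower, and between CFA6D and CFA3D 8, 4 higher and 4 lower. Calls gained there were Fbl (higher on CFA3D), Mxi1 (higher) and Gadd45b (lower) on CFA6D. Between the CFA groups, Mnt and Slc7a5 gained calls as higher and Nop56 as lower.

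Among the relatives and partners of Myc, Mycn stood near Myc in level and Max well above both. Mycn, a paralog of Myc, was at 2.21, 1.48 and 2.16 FPKM in saline, 2.29, 2.83 and 1.68 on CFA3D, and 1.57, 1.33 and 1.22 on CFA6D. It fell from CFA3D to CFA6D by 0.66 on the log2 scale (SE 0.23, limma adjusted p = 0.641), with no overlap, and the call was lost when saline replicate 3 and CFA6D replicate 6 were both left out. Mycl, the other paralog, ranged from 0.620 to 0.861 FPKM, and Max, the obligate partner, from 15.1 to 19.8 FPKM, and neither passed the test in a comparison.

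Of the 12 genes of this network without Myc, 2 were called on CFA6D, both higher, and none on CFA3D. Mlxip, which encodes the glucose-responsive factor MondoA, was at 4.01, 3.98 and 4.69 FPKM in saline, 4.49, 4.23 and 4.05 on CFA3D and 5.94, 6.12 and 6.82 on CFA6D. All CFA6D libraries lay above the others, by 0.57 from saline (SE 0.11, limma adjusted p = 0.124) and 0.55 from CFA3D (SE 0.11, limma adjusted p = 0.476). Mnt, a repressor that competes for Max, rose by 0.33 on CFA6D (SE 0.12, limma adjusted p = 0.329), from 6.73 to 9.10 FPKM in saline to 9.13 to 9.98 FPKM.

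Of the 18 genes for turnover and cofactors of the Myc protein, 5 were called higher on CFA6D, none lower, and none was called on CFA3D. Gsk3b, the kinase that marks Myc for destruction, was at 28.1 to 31.7 FPKM in saline and 37.7 to 39.0 FPKM on CFA6D (0.37, SE 0.12, limma adjusted p = 0.284), and it also rose from CFA3D (0.37, SE 0.12, limma adjusted p = 0.616). Fbxw7, the ubiquitin ligase subunit that binds the marked protein, rose by 0.25 (SE 0.10, limma adjusted p = 0.406), and the ligase Huwe1 by 0.17 (SE 0.07, limma adjusted p = 0.431). Zbtb17, which encodes the Myc partner Miz1, rose by 0.23 (SE 0.10, limma adjusted p = 0.432). When both saline replicate 3 and CFA6D replicate 6 were left out, the calls of Gsk3b, Fbxw7, Huwe1 and Zbtb17 against saline were lost. In that setting 1 of the 18 was called against saline, higher, and Gsk3b kept its call against CFA3D.

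The textbook targets of Myc showed few calls. Of 24 genes raised by Myc, 2 were called on CFA3D, the translation helicase gene Eif4a1 (0.17, SE 0.07) and the mitochondrial chaperonin gene Hspd1 (0.22, SE 0.08), both with a limma adjusted p of 0.997. The call of Eif4a1 was lost when saline replicate 3 and CFA6D replicate 6 were both left out. Hspd1 was at 45.7, 45.7 and 46.9 FPKM in saline, 49.1, 54.3 and 58.2 on CFA3D and 45.3, 44.7 and 41.6 on CFA6D. Between CFA3D and CFA6D Hspd1 fell by 0.29 (SE 0.08, limma adjusted p = 0.613) and its partner Hspe1 fell by 0.29 (SE 0.09, limma adjusted p = 0.616). On CFA6D 1 of the 24 was called higher, the amino acid transporter gene Slc7a5 (0.55, SE 0.18, limma adjusted p = 0.283), although its libraries overlapped. The median difference of the 24 genes was 0.098 on CFA3D and -0.0024 on CFA6D.

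Of 7 genes lowered by Myc, the cell cycle inhibitor gene Cdkn2b fell on CFA6D by 0.42 (SE 0.17, limma adjusted p = 0.404), from 1.38 to 1.59 FPKM in saline to 0.948 to 1.27 FPKM, a call that was lost when both libraries were left out. Gadd45b, a stress response gene, fell from CFA3D to CFA6D by 0.48 (SE 0.17, limma adjusted p = 0.641), with overlap. Without both libraries Gadd45b kept this call and was also called lower on CFA6D than in saline.

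Calls were also counted in 2 lists that bear on the regulation of the locus. Of 15 genes of upstream signals of Myc, 1 was called on CFA3D (higher) and 6 on CFA6D (5 higher and 1 lower). Stat3, the cytokine-responsive factor, was at 51.3 to 56.1 FPKM in saline and 62.0 to 67.3 FPKM on CFA6D (0.26, SE 0.07, limma adjusted p = 0.225). Hes1, a Notch target, was at 5.09, 3.92 and 4.11 FPKM in saline, 6.61, 6.62 and 5.15 on CFA3D and 3.46, 3.16 and 3.02 on CFA6D. It rose on CFA3D by 0.48 (SE 0.14, limma adjusted p = 0.997) and fell on CFA6D by 0.42 (SE 0.14, limma adjusted p = 0.318). The step from CFA3D to CFA6D was -0.90 (SE 0.14, limma adjusted p = 0.346), with no overlap. Stat3 and Hes1 were picked from this list after their values had been seen. Without saline replicate 3 and CFA6D replicate 6, 2 of the 15 were called on CFA6D, Stat3 and the NF-kappa B subunit gene Rela, and 2 on CFA3D, Hes1 and Socs3.

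Of 12 p53 targets, none was called on CFA3D and 2 on CFA6D, in opposite directions. Ccng1, which encodes cyclin G1, was at 17.1, 16.4 and 15.6 FPKM in saline, 16.1, 16.0 and 17.0 on CFA3D and 13.0, 13.3 and 14.4 on CFA6D. All CFA6D libraries lay below the others, by -0.27 from saline (SE 0.08, limma adjusted p = 0.231) and -0.26 from CFA3D (SE 0.08, limma adjusted p = 0.616). Zmat3, which encodes an RNA-binding protein, rose by 0.29 on CFA6D (SE 0.10, limma adjusted p = 0.347). Without saline replicate 3 and CFA6D replicate 6 the 2 calls were Ccng1 and Bax, both lower. Cdkn1a, the best known target of p53, was at 31.1 to 44.6 FPKM in saline, 34.8 to 47.6 on CFA3D and 32.9 to 52.0 on CFA6D and did not pass the test.

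**Figure D4:**
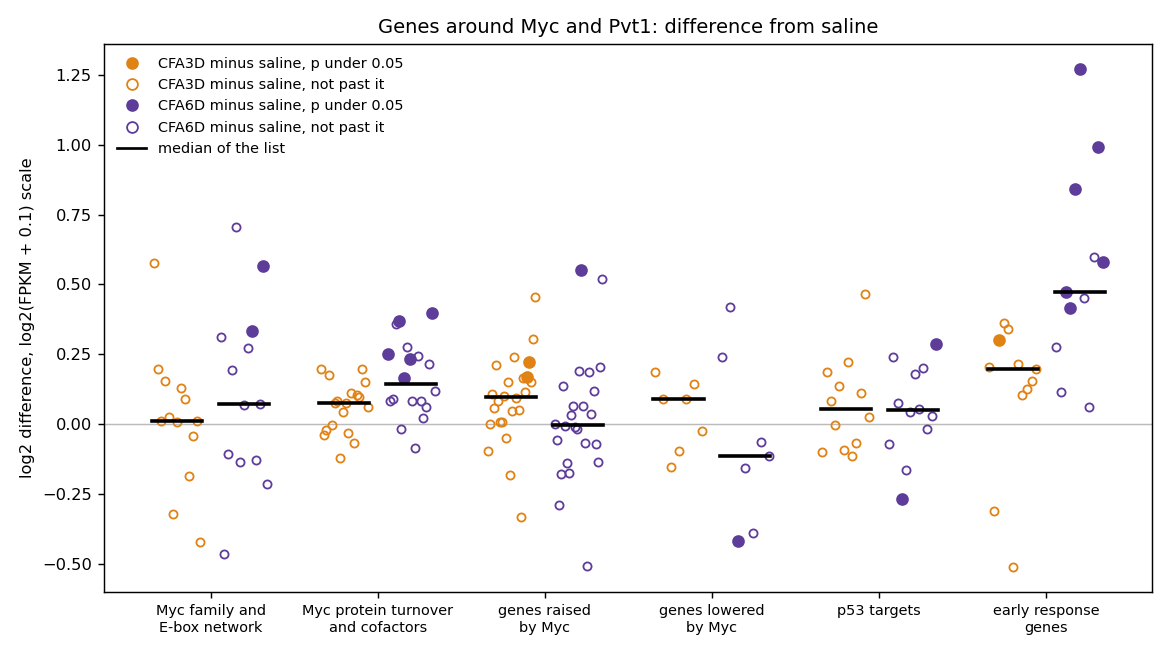
Difference of each gene from saline on the log2(FPKM + 0.1) scale for CFA3D (orange) and CFA6D (purple) in 6 gene lists, with filled points for an unadjusted p under 0.05 in limma and black bars for the list medians. Most points of the Myc lists lie within 0.5 of zero, and the early response genes have the highest CFA6D median, 0.47.

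The early response genes, which are switched on within minutes to hours by stimulation as Myc is, were counted in the same way. All 11 lay above saline on average on CFA6D, with a median log2 difference of 0.47, and 6 were called, all higher. Nr4a1, a nuclear receptor gene, was at 12.2, 11.4 and 6.77 FPKM in saline, 11.3, 13.4 and 8.57 on CFA3D, and 19.4, 22.3 and 17.5 on CFA6D (0.99, SE 0.23, limma adjusted p = 0.162). Egr1 rose by 0.84 (SE 0.25, limma adjusted p = 0.253), Egr2 by 1.27 (SE 0.56, limma adjusted p = 0.444) and the phosphatase gene Dusp1 by 0.58 (SE 0.19, limma adjusted p = 0.284). Junb rose by 0.42 (SE 0.18, limma adjusted p = 0.451).

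Jun was called in both CFA groups. It was at 19.2, 18.6 and 18.8 FPKM in saline, 21.7, 24.8 and 23.5 on CFA3D, and 27.3, 24.8 and 26.7 on CFA6D, higher by 0.30 (SE 0.08, limma adjusted p = 0.997) and 0.47 (SE 0.08, limma adjusted p = 0.086). When saline replicate 3 and CFA6D replicate 6 were left out, 3 of the 11 were called on CFA6D (Egr1, Jun and Nr4a1) and 3 on CFA3D (Egr1, Jun and Junb), all higher. Of the 10 genes of dividing cells, none was called in a comparison with all libraries in the fit, while without those 2 libraries 1 was called lower in each comparison (Ccnb1 on CFA3D, Mcm5 on CFA6D and Pcna between them). With all libraries, the high sum in CFA6D replicate 6 came with values such as 6.50 FPKM for Mki67 there and 0.385 to 0.727 FPKM elsewhere.

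Markers of other cells also moved on CFA6D, when Pvt1 was lower and early response genes were higher. The 5 satellite glia genes summed to 277 to 324 FPKM in saline, 286 to 339 on CFA3D and 238 to 322 on CFA6D. Although these sums overlapped, all 5 genes lay below saline on average on CFA6D, with a median log2 difference of -0.27 and 1 called lower (Cadm2), and the median from CFA3D was -0.41 with 1 called lower (Fabp7). The sum of the 6 Schwann cell genes was 2879 to 3358, 3003 to 3382 and 2627 to 3471 FPKM, and none was called. The 6 macrophage genes gave 66.3 to 81.4, 55.5 to 98.5 and 38.4 to 63.9 FPKM, so as a sum their CFA6D libraries lay below saline and overlapped CFA3D. None was called against saline, and 1 was called lower than on CFA3D (C1qb). Cd68 went the other way, by 0.24 from saline and 0.33 from CFA3D.

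The 5 fibroblast genes overlapped as a sum, at 298 to 601 FPKM, and did not move together. Dcn and Lum, which encode matrix proteoglycans, were called lower on CFA6D against both other groups, Dcn with overlap. The collagen genes went the other way without a call. Col1a1 lay higher by 0.60 from saline and 0.62 from CFA3D, and Col1a2 by 0.27 and 0.23. Lum fell by 0.49 from saline (SE 0.14, limma adjusted p = 0.239) and by 0.61 from CFA3D (SE 0.14, limma adjusted p = 0.518), with no overlap. Of the 8 neuron genes, 2 were called higher on CFA6D against both other groups, Nefm, a neurofilament gene, and Rbfox3, which encodes the neuronal nuclear protein NeuN. All 8 lay above saline on average on CFA6D (median 0.18), and all 8 did so on CFA3D as well (median 0.18). Between CFA6D and CFA3D, 4 of the 8 lay higher on CFA6D (median -0.01), and Calca lay lower there without overlap (-0.25) but was not called. Rbfox3 was at 29.7 to 38.9 FPKM in saline, 35.4 to 39.8 on CFA3D and 45.7 to 59.3 on CFA6D.

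All 8 neutrophil and marrow genes lay above both other groups on average on CFA6D. Against CFA3D 6 were called higher (median log2 difference 2.74), and against saline 1 was, S100a8 (median 1.95). Without saline replicate 3 and CFA6D replicate 6 the 6 calls against CFA3D were made again and none was made against saline, while 7 of the 8 were called lower on CFA3D than in saline. Of all 16096 gene sums, 423 were then called higher on CFA6D than on CFA3D, and 285 lower on CFA3D than in saline. Without these libraries the satellite glia calls were Fabp7 against saline and Fabp7 and Slc1a3 against CFA3D, the macrophage genes Csf1r and Cx3cr1 were called lower than in saline and Cx3cr1 alone lower than on CFA3D, and the Schwann cell gene Mag was called lower than on CFA3D. Nefm lost its call against CFA3D, Rbfox3 kept both and was also called higher on CFA3D than in saline, Lum kept its calls, and Dcn kept its call against CFA3D alone. The sums of 5 endothelial genes (22.0 to 40.8 FPKM), 5 erythroid genes (1667 to 5789) and 7 B and T cell genes (1.73 to 7.01) overlapped between the groups. With all libraries in the fit, Cd79a alone of these genes was called, higher on CFA6D than on CFA3D. Without saline replicate 3 and CFA6D replicate 6 Cd79a lost its call. The erythroid genes Hba-a1, Hba-a2 and Hbb-bt were then called lower on CFA3D than in saline, and Hbb-bt also on CFA6D. No skeletal muscle or pituitary gene was called with all libraries. Without saline replicate 3 and CFA6D replicate 6, 4 of the 5 muscle genes (Acta1, Ckm, Mylpf and Tnnt3) were called lower than in saline on CFA3D and on CFA6D. Of the 4 pituitary genes, 3 were then called higher on CFA6D than in saline and 4 higher than on CFA3D. Cga was called lower on CFA3D than in saline. These markers were named after their values had been seen, and none of the differences reached an adjusted p under 0.05 in limma with all libraries. The part of any of these cells in the Pvt1 level or in the early response genes was not tested.

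Across the 9 libraries, the levels of Pvt1 and Myc were nearly unrelated, with Pearson's r = 0.055 and Spearman's rho = -0.117 on the log2(FPKM + 0.1) scale. The CFA6D libraries stand apart in Pvt1. Within the 6 saline and CFA3D libraries r was -0.393 and rho -0.657, and without CFA6D replicates 4 and 5, the 2 farthest from the median of Pvt1, r was -0.547 and rho -0.679 over 7 libraries. By r, Myc ranked 7119 in likeness to Pvt1 among the 14198 gene sums that averaged 1 FPKM or more. These values describe libraries that share their preparation, and they carry no test.

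The 3 gene sums most like Pvt1 over the 9 libraries were Ccng1 (r = 0.975, rho = 0.900), Fndc5 (r = 0.957, rho = 0.700) and Fgfr1op (r = 0.955, rho = 0.733). Fndc5, which encodes the precursor of irisin, was at 8.74 to 9.07 FPKM in saline, 7.80 to 8.97 on CFA3D and 5.81 to 6.89 on CFA6D. Fgfr1op, which encodes a centrosomal protein, was at 5.23 to 5.79, 5.08 to 5.46 and 3.51 to 4.51 FPKM. All 3 thus had their lowest values on CFA6D. Within the 6 saline and CFA3D libraries r was 0.776 for Ccng1, 0.325 for Fndc5 and 0.156 for Fgfr1op.

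For Myc the 3 most alike were Rnf113a1, which encodes a spliceosome-associated protein (r = 0.956, rho = 0.967), 4930509H03Rik (r = 0.905, rho = 0.883) and Sema3e, which encodes a guidance cue (r = 0.894, rho = 0.800). Rnf113a1 was at 1.64, 0.989 and 1.92 FPKM in saline, 1.69, 1.87 and 2.09 on CFA3D, and 1.86, 1.30 and 2.12 on CFA6D. As for Myc, its lowest value was in saline replicate 2 and its next lowest in CFA6D replicate 5.

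**Figure D5:**
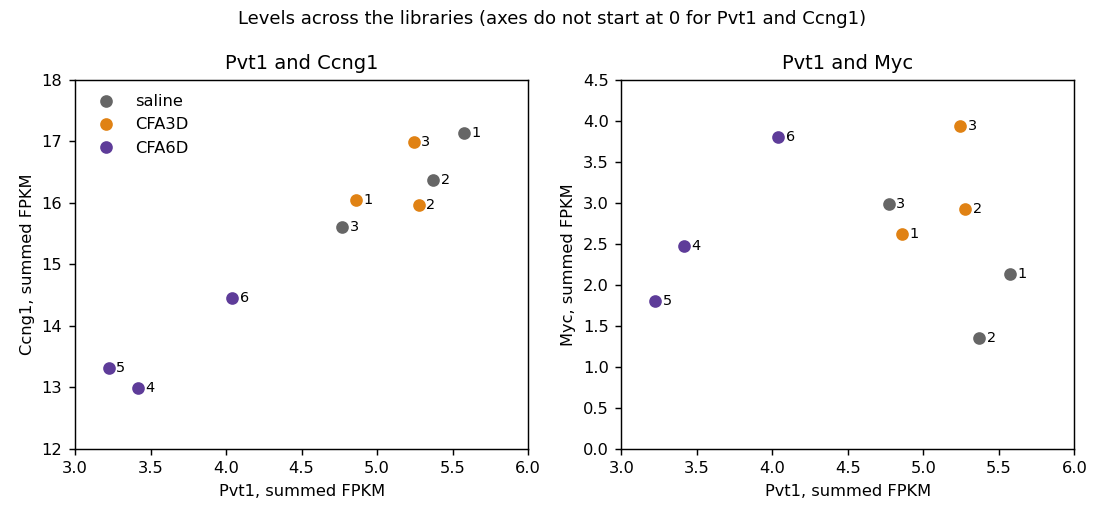
Summed FPKM of Ccng1 (left) and Myc (right) against that of Pvt1 in the 9 libraries (points, labelled with the replicate number and coloured by group, axes of Pvt1 and Ccng1 not from 0). Ccng1 follows Pvt1 with the CFA6D libraries lowest in both (r = 0.975), and Myc does not follow Pvt1 (r = 0.055).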

How the data were processed

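Total RNA of the TG was sequenced in 9 libraries from pools of 3 mice each. The study's methods describe ribosomal RNA depletion, strand-specific libraries, trimming with Trimmomatic, mapping to GRCm38 and CLC Genomics Workbench. The submitters' processing notes instead name Bowtie 0.12.2 and mm8, and which of these gave the values is not settled here. The authors deposited FPKM values per transcript and library, and 0 per-sample columns were left out. Transcript identifiers were joined to GENCODE release 21 for mouse (98.2% of lncRNA and 99.4% of mRNA transcripts matched), and FPKM were added up per gene. Transcripts without a match were left out of the gene sums.

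The comparisons used limma 3.58.1 under R 4.3.3, fitted to log2(FPKM + 0.1) for all features that averaged 0.1 FPKM or more. The model held the 3 groups and no covariate, with empirical Bayes moderation and a trend. Benjamini-Hochberg adjustment ran over the whole table. An exact permutation test of 3 against 3 libraries cannot go below 0.1, so none is given. By the study's methods 9 mice were used per group, 3 to a pool, and the p-values measure the spread between these libraries. Depth was estimated from the spacing of low FPKM values multiplied by transcript length. This estimate and the fit were tested on simulated data. Intervals of counting error were not computed, since the files hold no counts. Named genes are Pvt1 and Myc with their transcripts, Mycn, Mycl and Max, neighbours within 2 Mb at a mean of at least 0.1 FPKM, called genes of the Myc, p53 and early response lists (up to 10 per comparison, largest change first), and the 3 gene sums (mean of 1 FPKM or more) most correlated with Pvt1 and with Myc. The values of 2 genes of the lists are not reported here. The members and the lists were chosen with earlier results of these data known. The alternatives were pseudocounts of 0.01 and 1, other filters, quantile normalization, a log2 fold change of at least 1, only the groups compared, the most abundant transcript, a replicate block and leaving out each library. Leaving out saline replicate 3 and CFA6D replicate 6 together, and scaling to the summed mRNA FPKM, were added after the data had been seen. Tables were made with pandas 2.3.3 and numpy 2.4.6, and plots with matplotlib 3.10.9, in Python 3.11.15.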

Additional observations from a re-analysis of the deposited data

Results flagged for a closer look

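Some genes of the lists around Myc and Pvt1 differed between the CFA groups themselves, by the difference CFA6D minus CFA3D in limma at an unadjusted p under 0.05. None of these differences reached an adjusted p under 0.05 (limma, Benjamini-Hochberg), against 1190 gene sums at the unadjusted cutoff among 16096. In the Myc network, Mycn differed by -0.66 and Mlxip by 0.55 on the log2 scale, and among the turnover genes Gsk3b differed by 0.37. Of the Myc targets, Hspd1 differed by -0.29, Hspe1 by -0.29 and Gadd45b by -0.48. The p53 targets Ccng1 and Bax differed by -0.26 and -0.30, and Zmat3 by 0.26. Among the early response genes Jun differed by 0.17, Egr2 by 1.78 and Nr4a1 by 0.84. Of the upstream signals, Socs3 differed by -0.62, Il6st by -0.34 and Hes1 by -0.90. Without saline replicate 3 and CFA6D replicate 6, all of these but Mycn, Jun and Il6st were still called between the CFA groups. Their causes were not tested.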

How the results depend on the processing

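The log2 difference of Pvt1 between CFA6D and saline was -0.64 to -0.48 when each library was left out in turn, and that between CFA6D and CFA3D was -0.61 to -0.45, so both kept their direction. Between CFA3D and saline it was -0.09 to 0.02. Leaving out both saline replicate 3 and CFA6D replicate 6 moved the CFA6D difference of Pvt1 from saline to -0.71. With Pvt1-204, its most abundant transcript, in place of the gene sum, the differences were -0.20, -0.33 and -0.13 for CFA3D and CFA6D against saline and CFA6D against CFA3D. For Myc the ranges over left-out libraries were 0.29 to 0.84, 0.03 to 0.57 and -0.54 to -0.02, and with Myc-204 alone the CFA3D difference was 1.06, that of CFA6D from saline -0.10, opposite in sign to the gene sum, and that between CFA6D and CFA3D -1.16. The pseudocounts, quantile normalization and other scaling moved neither gene by more than the SD within groups. The filters and the fits with only the groups compared cannot change the log2 difference of a gene, only its SE, so they do not test it.

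The count of called Myc list genes on CFA3D, 2 of 61, was 0 when a log2 difference of 1 in size was also required, 0 after quantile normalization, 1 with only the groups compared, 1 after scaling to the summed mRNA FPKM, and 0 to 4 over left-out libraries. On CFA6D the 9 became 0 with that requirement and 6 to 11 over left-out libraries, and between CFA6D and CFA3D the 6 became 0 and 5 to 8. The cause of these shifts was not tested. Replicate numbers 1 to 3 are shared by saline and CFA3D only. Deviations of same-numbered libraries correlated at 0.087, -0.08 and 0.03, and those of different numbers at -0.11 to 0.061. These values gave no sign that the numbers pair the samples, but they are too few to settle it. With the replicate block, 0 of the 61 genes and 496 of all gene sums were called on CFA3D, 283 higher and 213 lower. The block cannot change the differences of Pvt1 and Myc (-0.03 and 0.58), since both groups hold the same numbers. Their SE became 0.15 and 0.21, against 0.14 and 0.33 in the main fit. Single transcripts rested on few read pairs per library, such as 10 to 45 for Pvt1-202 and 3 to 10 for Myc-203, which limits how finely either gene can be split.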
